A study of Homo sapiens with 33 samples.

Results

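Cells detect foreign or misplaced nucleic acid with a small set of sensors that lead to type I interferon, and 10 of these genes were followed here across platinum-sensitive and platinum-resistant ovarian carcinoma lines. They were taken by name from the 29744 genes in the deposited tables: the endosomal RNA sensor TLR3, the cytosolic RNA sensors IFIH1 (MDA5) and DDX58 (RIG-I) with their adaptor MAVS, the cytosolic DNA sensor MB21D1 (cGAS) with its adaptor TMEM173 (STING), the exonuclease TREX1, the kinase TBK1, the transcription factor IRF3 and the interferon gene IFNB1. RNA was sequenced in 33 libraries, 3 for each of 11 high-grade serous ovarian carcinoma lines in 4 families. OVCAR3 and OVCAR4 are established lines, and each was made resistant in independent duplicate, as ResA and ResB, by short repeated cisplatin exposures of rising dose; these lines were not kept in cisplatin. PEA1 and PEA2 came from the same patient before and after clinical platinum resistance, and so did PEO1 and the later PEO4 and PEO6. The sample labels name the line and no treatment, and the role of each line (4 sensitive, 7 resistant) was taken from the study's text. The labels do not say whether the 3 libraries of a line came from separate cultures, so p-values measure the spread between these libraries, which may be technical.

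In the DNA arm, cGAS binds double-stranded DNA in the cytosol and makes the cyclic dinucleotide cGAMP, which activates STING; TREX1 degrades cytosolic DNA and so limits this signal. In the RNA arm, RIG-I and MDA5 bind viral or mislocalised RNA and signal through MAVS, while TLR3 binds double-stranded RNA in endosomes. The arms meet at TBK1, which phosphorylates IRF3, and IRF3 then switches on IFNB1. Interferon in turn raises many target genes, among them IFIH1 and DDX58 themselves, and loss of cGAS or STING is common in cultured tumour cells.

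The regions just upstream of the sensor genes are shown because IFIH1, DDX58 and TLR3 moved together in the PEO family, described below. Promoter sequences were available from RefSeq (GRCh38.p14) for 7 of the 10 genes; MB21D1, TMEM173 and IRF3 were not matched. Each was searched on both strands, over the 250 bases before the annotated start, for a core of the interferon-stimulated response element (GAAANNGAA) and for the STAT-binding GAS element (TTCNNNGAA, which reads the same on both strands). Capitals mark the matches. The IFIH1 promoter (chr2:162318685-162318934, minus strand) held 4 response element matches. Overlapping matches on the opposite strand began 164, 158 and 152 bases before the start, and a match on the gene's strand began 21 bases before it.
IFIH1: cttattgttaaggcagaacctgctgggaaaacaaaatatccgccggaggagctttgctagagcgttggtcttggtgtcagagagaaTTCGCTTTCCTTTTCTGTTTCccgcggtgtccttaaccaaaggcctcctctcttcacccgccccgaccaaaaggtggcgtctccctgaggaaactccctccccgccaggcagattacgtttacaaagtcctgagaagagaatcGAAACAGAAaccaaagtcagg
The TLR3 promoter (chr4:186068906-186069155, plus strand) held a GAS match 178 bases and another 50 bases before the start.
TLR3: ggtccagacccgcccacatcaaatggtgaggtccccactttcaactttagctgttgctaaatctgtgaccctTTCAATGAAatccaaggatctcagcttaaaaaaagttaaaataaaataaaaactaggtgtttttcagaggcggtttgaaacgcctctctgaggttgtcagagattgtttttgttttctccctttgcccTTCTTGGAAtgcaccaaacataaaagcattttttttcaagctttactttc
The DDX58 promoter (chr9:32526197-32526446, minus strand) held neither.
DDX58: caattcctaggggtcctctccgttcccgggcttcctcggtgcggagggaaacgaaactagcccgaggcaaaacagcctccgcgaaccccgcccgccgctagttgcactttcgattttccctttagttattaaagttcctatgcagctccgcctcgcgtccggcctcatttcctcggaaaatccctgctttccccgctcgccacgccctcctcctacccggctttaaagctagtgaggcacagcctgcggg
Among the other matched members, IFNB1 had a GAS match 218 bases before the start, and MAVS, TREX1 and TBK1 had none. Of 35116 promoters of the same length, 6.88% held the response element core and 6.57% the GAS element. These matches describe letters in a window and not bound sites. The genes themselves lie at chr4:186069156-186088073 (TLR3), chr2:162267074-162318684 (IFIH1), chr9:32455302-32526196 (DDX58), chr20:3846834-3876118 (MAVS), chr6:73423711-73452297 (MB21D1), chr5:139475533-139482758 (TMEM173), chr3:48465830-48467645 (TREX1), chr12:64452120-64502114 (TBK1), chr19:49659572-49665857 (IRF3) and chr9:21077104-21077942 (IFNB1). DDX58 overlaps a pair of uncharacterised loci, so its counts carry the same doubt as those of TREX1 and IRF3, described below.

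Estimated counts per library ran from 18.1 M to 43.4 M, with a median of 30.6 M. The share of counts on mitochondrial rRNA ran from 1.12% to 14.8% and varied most between libraries of the OVCAR4 family. OVCAR4 ResA replicate 1 stood apart. Of 18 genes that were above 3 CPM (counts scaled to library size) in OVCAR4 and below 0.1 CPM in the other two ResA libraries, 16 were above 0.1 CPM in replicate 1. In ResB 2 of 35 such genes were, so its replicate 1 did not stand apart by this measure. The members' OVCAR4 results are given with and without replicate 1, which removes that library from OVCAR4, ResA and ResB alike. Of 6 ovarian epithelial markers, at least 5 reached 1 TPM (a level scaled to gene length and library size) in every line but PEA1, which had 4. Their summed level was 202 to 231 TPM in PEA1 and 2022 to 2220 TPM in PEA2.

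Line means of the sensors spanned wide ranges. The mean level of MB21D1 ran from 0.034 TPM in OVCAR3 ResB to 36.0 TPM in PEA2. IFIH1 ran from 0.884 to 53.5 TPM, DDX58 from 4.62 to 109 TPM and TLR3 from 0.341 to 9.02 TPM. Of the genes that act after the sensors, TMEM173 ran from 4.91 to 73.7 TPM, TBK1 from 16.2 to 49.4 TPM, MAVS from 10.2 to 33.1 TPM and IRF3 from 17.4 to 71.2 TPM. The spans were not tested against each other. The plot of levels in every library shows these ranges side by side.

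**Figure D1:**
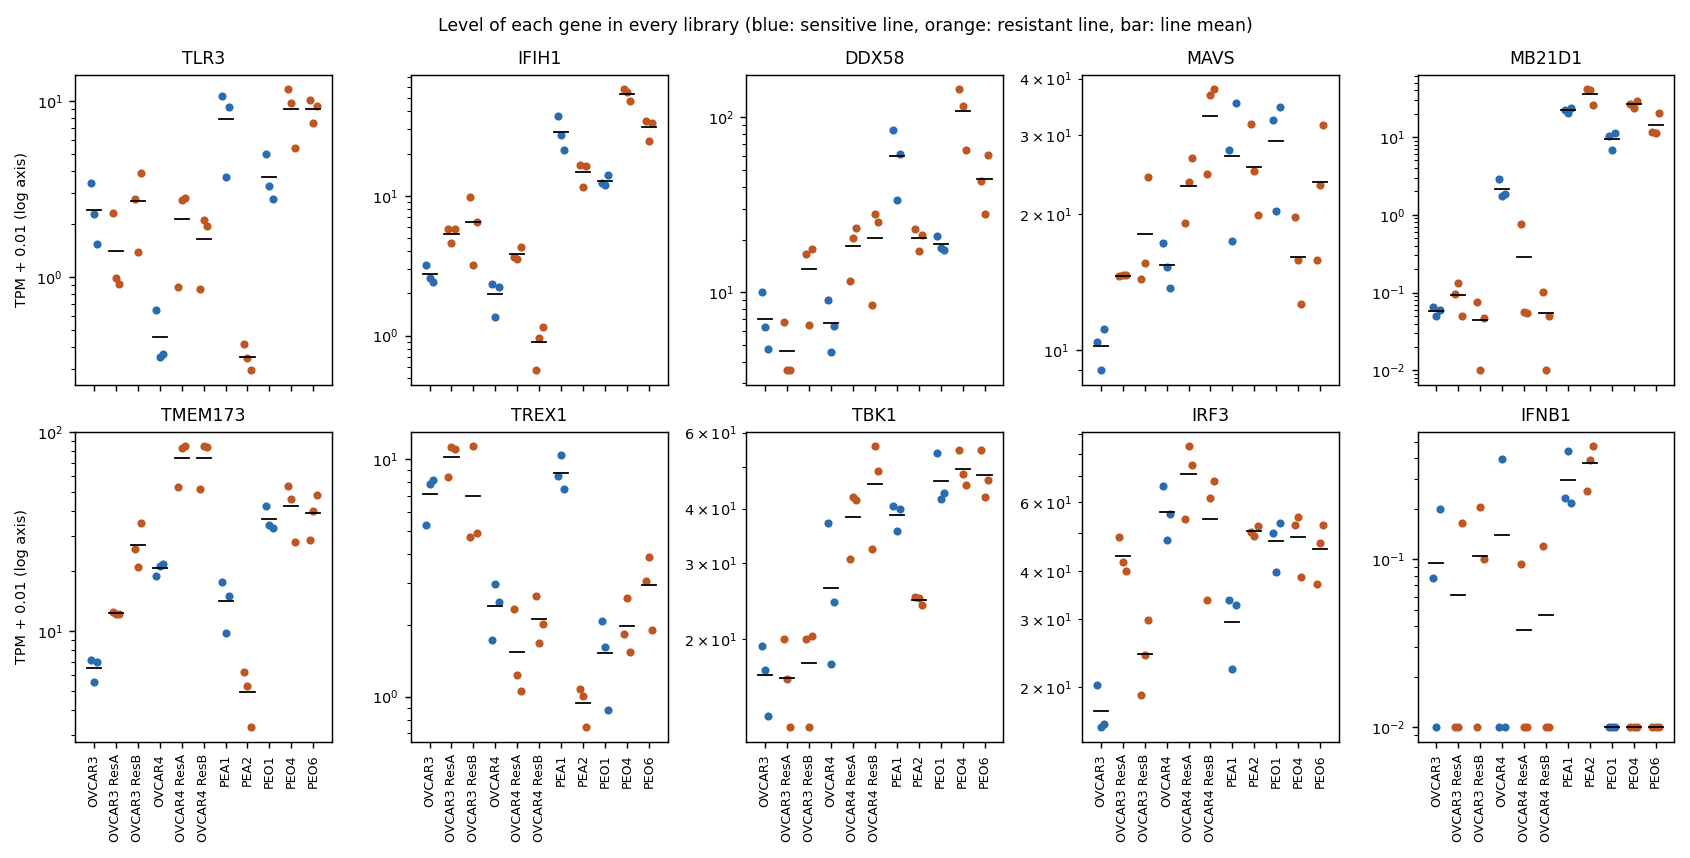
Level of each of the 10 genes in all 33 libraries, as TPM plus 0.01 on a log axis, with lines along the horizontal axis, sensitive lines in blue, resistant lines in orange and a bar at each line's mean. MB21D1 separates the PEA and PEO lines, at 6.9 TPM or more, from the OVCAR3 lines, at 0.122 TPM or less, while TBK1 and IRF3 stay above 12 TPM in every library.

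Within a family, resistant lines were set against the sensitive line, whose libraries they share as controls, by the Wald test of DESeq2, and a gene was called at a Benjamini-Hochberg adjusted p-value under 0.05 over all genes tested. Over 7 pairs and 10 genes there were 70 combinations, of which 28 were called (16 higher and 12 lower in the resistant line), 34 were not and 8 had no adjusted p-value because counts were too low. No member was called in the same direction in every pair. TMEM173 came nearest, higher in 4 pairs and lower in 1. The share called must be read against all genes with an adjusted p-value. Of the 10 members, 8 had one in each OVCAR3 pair, 9 in each OVCAR4 pair (also without replicate 1) and PEO pair, and 10 in PEA2. Between resistant lines 8 had one in OVCAR3, 9 in PEO and 9 in OVCAR4 (8 without replicate 1). In OVCAR3 ResA 6 members were called, where 46.3% of all genes were, and in OVCAR3 ResB 1 was, where 7.45% were. In OVCAR4 ResA 2 members were called against 11.6% of all genes, and in OVCAR4 ResB 3 against 18.7%. Without replicate 1 these counts were 5 in OVCAR4 ResA, where 41.2% of all genes were called, and 8 in OVCAR4 ResB, where 45.1% were. The count was 8 in PEA2 against 46.0% of all genes, 5 in PEO4 against 34.4% and 3 in PEO6 against 41.7%. The median log2 fold change of the members with an adjusted p-value was lowest in PEA2, at -0.67 beside -0.02 over all genes, and highest in OVCAR3 ResB, at 0.61 beside 0.00. The map of fold changes shows all of these comparisons.

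**Figure D2:**
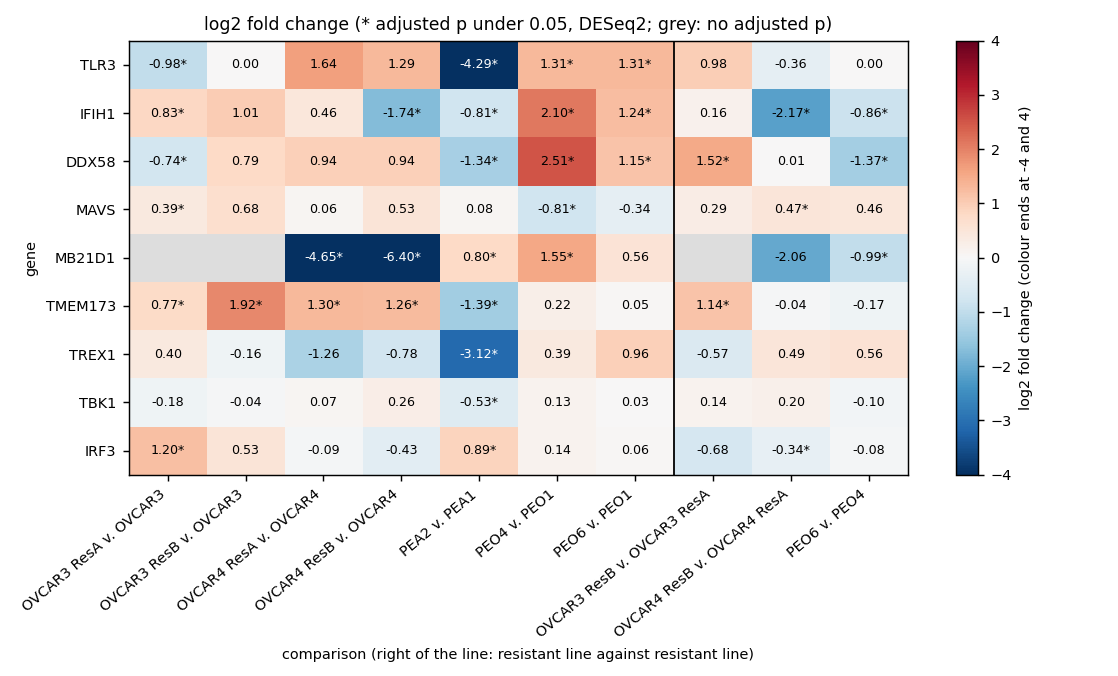
Fitted log2 fold change of 9 members (rows; IFNB1 was too low) in 7 comparisons of a resistant with its sensitive line and, right of the line, 3 of a resistant line with another of its family. Red is higher and blue lower in the line named before "v.", a star marks an adjusted p-value under 0.05, and grey has none; TMEM173 is starred and higher in all 4 OVCAR3 and OVCAR4 pairs, MB21D1 is starred and lower in both OVCAR4 pairs, and values beyond -4 share the end colour.

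MB21D1, which encodes the DNA sensor cGAS, was near the limit of detection in the OVCAR3 family and was far lower in the resistant derivatives of OVCAR4 than in OVCAR4. The 3 libraries of OVCAR3 held 2, 1 and 1 counts, those of ResA 2, 3 and 1, and those of ResB 1, 0 and 1, so no change could be seen there in either direction. In OVCAR4 the counts were 96, 42 and 52, or 2.89, 1.72 and 1.84 TPM. OVCAR4 ResA had 21 counts in replicate 1 and 1 count in each of the other two, and OVCAR4 ResB had 2, 0 and 1. No library of either resistant line reached the lowest OVCAR4 library. In such bulk samples, fewer cells that express a gene and less RNA in each cell cannot be told apart. The fitted log2 fold change was -4.65 ± 1.07 (SE) in OVCAR4 ResA (adjusted p = 0.00041, DESeq2). Its adjusted p was 5.9e-06 without replicate 1, and the call was lost without replicate 2 (adjusted p = 0.065) or replicate 3 (adjusted p = 0.11), each of which leaves the library that stood apart beside a library with 1 count, and in edgeR (adjusted p = 0.067). In OVCAR4 ResB, where all libraries were at or under 3 counts, MB21D1 was at least 26.0-fold lower against that floor per library (adjusted p = 1.2e-07), and the call was kept in every alternative tried.

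In the PEA and PEO lines MB21D1 was readily detected, and it was called higher in PEA2 and PEO4 but not in PEO6. PEA1 libraries had 22.5, 20.1 and 23.4 TPM and PEA2 libraries 41.9, 39.99 and 26.1 TPM. All PEA2 values lay above all PEA1 values, with a log2 fold change of 0.80 ± 0.24 (adjusted p = 0.0030). That difference was not called without replicate 1 (adjusted p = 0.21), in limma on log2(TPM + 1) or in one fit of all 33 libraries. PEO1 libraries had 10.2, 6.90 and 11.2 TPM, those of PEO4 26.9, 23.4 and 29.2 TPM, and those of PEO6 11.5, 11.2 and 20.3 TPM. PEO4 lay wholly above PEO1, with a log2 fold change of 1.55 ± 0.20 (adjusted p = 6.3e-13). PEO6 had a smaller difference of 0.56 ± 0.27 that did not pass (adjusted p = 0.083). It was lower than PEO4 by a log2 fold change of -0.99 ± 0.30 (adjusted p = 0.0097). This call was lost without replicate 1 (adjusted p = 0.17) or replicate 2 (adjusted p = 0.40), in limma and in the fit of all 33 libraries.

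TMEM173, which encodes the adaptor STING that acts directly after cGAS, was higher in all 4 lines selected with cisplatin. OVCAR3 libraries had 7.08, 5.50 and 6.95 TPM, OVCAR3 ResA libraries 12.5, 12.1 and 12.1 TPM, and OVCAR3 ResB libraries 25.6, 20.9 and 34.8 TPM. The 3 lines did not overlap. The log2 fold change against OVCAR3 was 0.77 ± 0.18 in ResA (adjusted p = 8.7e-05) and 1.92 ± 0.34 in ResB (adjusted p = 1.4e-06), and both calls were kept in every alternative. ResB was higher than ResA by 1.14 ± 0.34 (adjusted p = 0.0091). This call was lost without replicate 1 (adjusted p = 0.17) or replicate 2 (adjusted p = 0.33) and in limma on log2(TPM + 1).

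OVCAR4 itself had 18.9, 21.2 and 21.7 TPM of TMEM173. The values were 52.7, 83.0 and 84.8 TPM in its ResA and 51.6, 85.2 and 84.3 TPM in its ResB. The resistant libraries all lay above OVCAR4, and in both resistant lines replicate 1 was the lowest. The log2 fold change was 1.30 ± 0.29 in ResA (adjusted p = 0.00031) and 1.26 ± 0.30 in ResB (adjusted p = 0.00054). Without replicate 1 it was 1.25 (adjusted p = 9.6e-09) and 1.17 (adjusted p = 1.5e-09). The adjusted p was 0.14 and 0.11 when replicate 2 was left out, and 0.25 and 0.22 when replicate 3 was. In limma on log2(TPM + 1) the ResA call was lost as well. OVCAR4 ResA and ResB had the highest TMEM173 means of the 11 lines, with MB21D1 at 0.75 TPM or less, which the plot of the 2 genes shows.

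**Figure D3:**
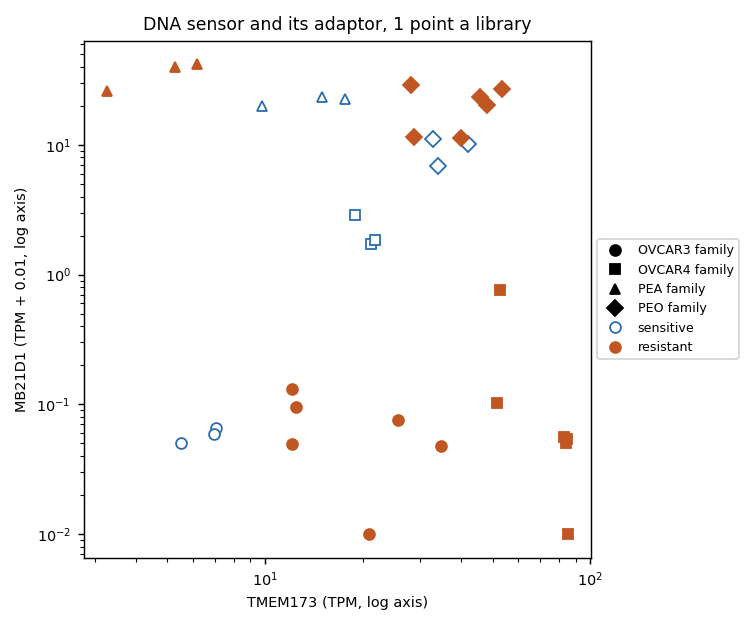
MB21D1 (TPM plus 0.01) against TMEM173 (TPM), both on log axes, with 1 point for each of the 33 libraries, a marker shape for each family, open blue for sensitive and filled orange for resistant lines. The OVCAR4 resistant libraries (orange squares) sit at 51.6 to 85.2 TPM of TMEM173 and 0.75 TPM or less of MB21D1, whereas PEA2 (orange triangles) has 3.25 to 6.18 TPM of TMEM173 and 26.1 to 41.9 TPM of MB21D1.

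PEA2 showed the reverse arrangement. TMEM173 was 17.6, 9.77 and 14.97 TPM in PEA1 and 6.18, 5.28 and 3.25 TPM in PEA2, without overlap, and the log2 fold change was -1.39 ± 0.29 (adjusted p = 1.1e-05). In the PEO family TMEM173 had overlapping levels, with means of 36.3, 42.5 and 38.9 TPM in PEO1, PEO4 and PEO6 and log2 fold changes of 0.22 ± 0.18 (adjusted p = 0.37) and 0.05 ± 0.24 (adjusted p = 0.88) against PEO1.

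TREX1, the exonuclease that clears cytosolic DNA, was called in the PEA pair alone of the 7. PEA1 libraries had 8.50, 10.4 and 7.46 TPM and PEA2 libraries 1.07, 0.994 and 0.732 TPM. The groups were far apart, with a log2 fold change of -3.12 ± 0.37 (adjusted p = 5.7e-16). TREX1 overlaps ATRIP and a read-through transcript of both, and its estimated counts were not whole, so the split of reads between the 2 genes is uncertain. The summed level of TREX1 and ATRIP was 15.01 ± 1.15 TPM (SD, n = 3) in PEA1 and 6.43 ± 1.11 TPM in PEA2. In the other 6 pairs the log2 fold change of TREX1 lay between -1.26 and 0.96 and did not pass. Without replicate 1 it was called lower in OVCAR4 ResA (-1.94, adjusted p = 0.0040) and in OVCAR4 ResB (-1.44, adjusted p = 0.032).

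Among the RNA sensors, IFIH1 and DDX58 were highest in PEO4, and TLR3 was higher in PEO4 and PEO6 than in PEO1. IFIH1, the MDA5 sensor of long double-stranded RNA, was 12.3, 11.96 and 13.97 TPM in PEO1. It was 58.3, 55.1 and 47.2 TPM in PEO4 and 34.2, 24.8 and 33.4 TPM in PEO6. The 3 lines did not overlap, and the log2 fold change was 2.10 ± 0.17 in PEO4 (adjusted p = 2.2e-32) and 1.24 ± 0.25 in PEO6 (adjusted p = 4.3e-06). DDX58, the RIG-I sensor of short RNA with a triphosphate end, was 20.9, 17.9 and 17.3 TPM in PEO1. In PEO4 it was 146, 117 and 65.4 TPM, and in PEO6 43.1, 28.1 and 61.3 TPM, again above every PEO1 library. Its log2 fold change was 2.51 ± 0.18 (adjusted p = 2.0e-41) and 1.15 ± 0.27 (adjusted p = 0.00010). TLR3 was 5.003, 3.28 and 2.76 TPM in PEO1, 11.8, 9.79 and 5.43 TPM in PEO4 and 10.1, 7.50 and 9.41 TPM in PEO6, with a log2 fold change of 1.31 in each (SE 0.23 and 0.29, adjusted p = 1.0e-07 and 3.0e-05). These calls for IFIH1, DDX58 and TLR3 were kept in every alternative.

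PEO4 and PEO6, which were compared with the same PEO1 libraries, were also set against each other directly; 3 members were called, all lower in PEO6, where 18.3% of all genes were called. DDX58 had a log2 fold change of -1.37 ± 0.35 (adjusted p = 0.0012) and IFIH1 of -0.86 ± 0.29 (adjusted p = 0.022), and the remaining one was MB21D1. TLR3 differed by 0.00 ± 0.33. Neither the DDX58 nor the IFIH1 call held without replicate 1 (adjusted p = 0.067 for DDX58 and 0.093 for IFIH1) or without replicate 2 (adjusted p = 0.34 and 0.61). Both were also lost in limma on log2(TPM + 1), and IFIH1 in edgeR.

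In PEA2 the same 3 sensors were lower than in PEA1. TLR3 was 10.7, 3.71 and 9.30 TPM in PEA1 and 0.403, 0.335 and 0.284 TPM in PEA2. Every PEA2 library was below every PEA1 library, with a log2 fold change of -4.29 ± 0.39 (adjusted p = 2.9e-27). DDX58 was 84.8, 33.5 and 61.9 TPM in PEA1 and 23.1, 17.1 and 21.2 TPM in PEA2, a log2 fold change of -1.34 ± 0.24 (adjusted p = 1.8e-07). IFIH1 was 37.0, 27.1 and 21.2 TPM in PEA1 and 16.6, 11.5 and 16.3 TPM in PEA2, a log2 fold change of -0.81 ± 0.29 (adjusted p = 0.016) that was not called without replicate 1 (adjusted p = 0.28) or replicate 2 (adjusted p = 0.21). Epithelial markers went the other way in the PEA pair: 4 of 6 were called higher in PEA2 and none lower, where 46.0% of all genes were called. EPCAM was 14.005 ± 1.20 TPM in PEA1 and 575 ± 36.5 TPM in PEA2. The 6 leukocyte markers summed to 11.01 to 24.1 TPM in PEA1 and 55.2 to 57.8 TPM in PEA2, with 3 called higher and 1 lower in PEA2. Most of that sum was CD68 (18.7 ± 7.45 and 49.9 ± 1.51 TPM), while the leukocyte antigen PTPRC was at 0 counts in PEA1 and 3.30 ± 0.24 TPM in PEA2 and the T cell gene CD3E was at 0 counts in both. The part of these marker differences in the sensor results was not tested.

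In the OVCAR3 family the RNA sensors moved apart from each other. IFIH1 was 3.20, 2.59 and 2.40 TPM in OVCAR3 and 5.74, 4.58 and 5.73 TPM in ResA, which did not overlap, with a log2 fold change of 0.83 ± 0.21 (adjusted p = 0.00027; 0.082 without replicate 3). DDX58 was 9.99, 6.27 and 4.74 TPM in OVCAR3 and 6.74, 3.56 and 3.55 TPM in ResA. These groups overlapped, but ResA was below OVCAR3 in each same-numbered pair. The log2 fold change with the replicate number as a block was -0.74 ± 0.17 (adjusted p = 4.5e-05). The adjusted p was 0.078 without the block and 0.077 in one fit of all 33 libraries. TLR3 was 3.41, 2.26 and 1.52 TPM in OVCAR3 and 2.30, 0.972 and 0.898 TPM in ResA, a log2 fold change of -0.98 ± 0.31 (adjusted p = 0.0050) that was lost without the block (adjusted p = 0.084) and when replicate 1, 2 or 3 was left out (adjusted p = 0.12, 0.18 and 0.071). In ResB, IFIH1 ranged from 3.19 to 9.74 TPM, DDX58 from 6.52 to 17.8 TPM and TLR3 from 1.38 to 3.91 TPM, each overlapping OVCAR3, and none was called. ResB and ResA were also compared directly, where 2 members were called against 13.6% of all genes. DDX58 was higher in ResB by a log2 fold change of 1.52 ± 0.35 (adjusted p = 0.00030), although the lowest ResB library (6.52 TPM) was below the highest of ResA (6.74 TPM), and the call was lost in limma on log2(TPM + 1) (adjusted p = 0.11). TMEM173 was the other. Of the 6 epithelial markers, 4 were called lower and 1 higher in ResA, where 46.3% of all genes were called. In ResB 1 was called lower and 0 higher, where 7.45% were. WT1 was 60.3 ± 2.91 TPM in OVCAR3, 2.09 ± 0.46 TPM in ResA and 4.40 ± 1.08 TPM in ResB. What part these differences had in the sensor results was not tested.

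In the OVCAR4 family IFIH1 fell in ResB and DDX58 and TLR3 did not. IFIH1 was 2.34, 1.34 and 2.22 TPM in OVCAR4, 3.62, 3.497 and 4.27 TPM in ResA and 0.554, 0.956 and 1.14 TPM in ResB. The log2 fold change against OVCAR4 was -1.74 ± 0.46 in ResB (adjusted p = 0.0020; 0.0064, 0.13 and 0.35 without replicate 1, 2 and 3) and 0.46 ± 0.40 in ResA (adjusted p = 0.53; 0.46 without replicate 1). The direct comparison of ResB with ResA, in which 3 members were called against 33.1% of all genes, gave IFIH1 a log2 fold change of -2.17 ± 0.31 (adjusted p = 3.4e-11), kept in every alternative; without replicate 1, 2 members were called against 28.2%. On the TPM scale the median gene was higher in ResA by 0.44 and in ResB by 0.47 (log2) than in OVCAR4. IFIH1 in ResB was lower by 0.65 on the log2(TPM + 1) scale (limma, adjusted p = 0.18), against that upward shift.

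DDX58 was 9.04, 4.53 and 6.38 TPM in OVCAR4, 11.5, 20.3 and 23.4 TPM in ResA and 8.39, 27.9 and 25.3 TPM in ResB. Replicates 2 and 3 of both resistant lines were above every OVCAR4 library, while replicate 1 was just above them in ResA and among them in ResB. The log2 fold change was 0.94 in both lines (SE 0.36 and 0.43) and was not called (adjusted p = 0.064 and 0.11). Without replicate 1 it was 1.26 ± 0.23 in ResA (adjusted p = 3.8e-07) and 1.46 ± 0.22 in ResB (adjusted p = 3.1e-10). TLR3 was 0.637, 0.339 and 0.354 TPM in OVCAR4, 0.866, 2.74 and 2.81 TPM in ResA and 0.845, 2.10 and 1.95 TPM in ResB. Every resistant library was above every OVCAR4 library on this scale, and replicate 1 was the lowest of both resistant lines. Its log2 fold change was 1.64 ± 0.65 (adjusted p = 0.083) and 1.29 ± 0.61 (adjusted p = 0.13), and without replicate 1 it was 2.28 (adjusted p = 0.00097) and 1.74 (adjusted p = 0.033). The share of counts on mitochondrial rRNA also varied in this family. It was 5.18%, 14.8% and 11.96% in OVCAR4, 9.23%, 2.02% and 2.09% in ResA and 13.1%, 2.47% and 2.39% in ResB. In each resistant line replicate 1 had the highest share and the lowest DDX58, TLR3 and TMEM173. In OVCAR4 replicate 1 had the lowest share, the highest DDX58 and TLR3 and the lowest TMEM173. Leaving out replicate 1 leaves OVCAR4 at 14.8% and 11.96% beside 2.02% to 2.47% in the resistant lines. Epithelial markers were called lower in ResB for 3 of 6 and in ResA for none, where 18.7% and 11.6% of all genes were called. Without replicate 1 they were called lower for 4 of 6 in ResB and 1 of 6 in ResA, beside 45.1% and 41.2%. The part of either in these results was not tested.

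MAVS, the mitochondrial adaptor of RIG-I and MDA5, was called in 2 pairs of 7, in opposite directions. PEO1 libraries had 32.4, 20.3 and 34.6 TPM and PEO4 libraries 19.7, 15.8 and 12.6 TPM, with a log2 fold change of -0.81 ± 0.18 (adjusted p = 8.1e-05), so that the adaptor was lower where both of its sensors were highest. In OVCAR3 ResA it was 14.5, 14.6 and 14.6 TPM against 10.4, 8.99 and 11.1 TPM in OVCAR3, a log2 fold change of 0.39 ± 0.11 (adjusted p = 0.0012). The adjusted p was 0.082 without the block and 0.15 in one fit of all 33 libraries. OVCAR4 libraries had 17.2, 15.3 and 13.7 TPM, its ResA 19.1, 23.5 and 26.6 TPM and its ResB 24.5, 36.7 and 38.0 TPM. Both resistant lines lay above OVCAR4 on the TPM scale, on which the median gene was also higher, and the fitted log2 fold change was 0.06 ± 0.29 in ResA (adjusted p = 0.92) and 0.53 ± 0.29 in ResB (adjusted p = 0.21). Without replicate 1 it was 0.06 (adjusted p = 0.85) and 0.55 ± 0.16, the latter called (adjusted p = 0.0022). OVCAR4 ResB exceeded OVCAR4 ResA by 0.47 ± 0.08 (adjusted p = 2.4e-07). The adjusted p was 2.4e-05 without replicate 1, 0.079 without replicate 2 and 0.082 in the fit of all 33 libraries.

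TBK1, the kinase shared by all of these sensors, varied least between lines of the members with a level above the floor everywhere, with 3.05 times between the highest and lowest line means. The log2 fold change lay between -0.18 and 0.26 in 6 pairs and did not pass. Without replicate 1 it was 0.27 in OVCAR4 ResA (adjusted p = 0.33) and 0.49 in OVCAR4 ResB, which was called (adjusted p = 0.034). In PEA2 it was 25.0, 24.8 and 24.0 TPM against 40.5, 35.5 and 39.8 TPM in PEA1, without overlap, and the log2 fold change of -0.53 ± 0.23 was just called (adjusted p = 0.044). That call was lost without replicate 1 (adjusted p = 0.38), without replicate 2 (adjusted p = 0.18), with TMM scaling (adjusted p = 0.060) and in edgeR (adjusted p = 0.080).

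IRF3, the transcription factor that TBK1 activates, was called higher in 2 resistant lines and lower in none. OVCAR3 libraries had 20.3, 15.8 and 16.1 TPM and OVCAR3 ResA libraries 48.8, 42.1 and 39.8 TPM. The groups were well apart, with a log2 fold change of 1.20 ± 0.14 (adjusted p = 1.1e-17). PEA1 libraries had 33.6, 22.4 and 32.7 TPM and PEA2 libraries 50.2, 49.1 and 52.3 TPM, a log2 fold change of 0.89 ± 0.23 (adjusted p = 0.00058). Both calls were kept in every alternative. IRF3 overlaps BCL2L12, and the sources used here do not state whether reads were counted by strand; BCL2L12 was 9.15 to 9.92 TPM in OVCAR3 and 17.5 to 22.9 TPM in ResA, but 15.7 to 19.4 TPM in PEA1 and 15.4 to 18.2 TPM in PEA2. In OVCAR4 ResB against ResA, IRF3 was lower by a log2 fold change of -0.34 ± 0.13 (adjusted p = 0.027). This call was lost without replicate 1 (adjusted p = 0.13) or replicate 2 (adjusted p = 0.54), without the block and in the fit of all 33 libraries. Against OVCAR4 without replicate 1 it was not called in ResA (-0.12, adjusted p = 0.70) or in ResB (-0.41, adjusted p = 0.059).

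IFNB1, the interferon at the end of the pathway, was barely detected. It had 0 counts in 19 of the 33 libraries, at most 6 counts in any library and 40 counts in all. All 9 libraries of the PEO family were at 0, which allows up to 0.122 CPM in the shallowest of them, although PEO4 had the highest IFIH1 and DDX58 levels. PEA1 had 3, 6 and 2 counts and PEA2 3, 6 and 6, and the difference was not called (adjusted p = 0.82). In the other 6 pairs DESeq2 gave no adjusted p-value. At this depth no change in IFNB1 could be seen in either direction.

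Of 32 further genes of the pathway (other sensors, adaptors, kinases, interferon ligands and receptors), 10 were called higher and 2 lower in PEO4, 9 and 2 in PEO6, 6 and 6 in PEA2, 7 and 5 in OVCAR3 ResA, 1 and 1 in OVCAR3 ResB, 1 and 0 in OVCAR4 ResA, and 4 and 0 in OVCAR4 ResB. Of the 32, 22 to 24 had an adjusted p-value in each pair, and their median log2 fold change lay between -0.06 and 0.40. Read against all genes, 12 of 24 were called in PEO4 beside 34.4%, 11 of 24 in PEO6 beside 41.7%, 12 of 23 in PEA2 beside 46.0% and 12 of 24 in OVCAR3 ResA beside 46.3%. In the other lines 2 of 23 were called in OVCAR3 ResB beside 7.45%, 1 of 22 in OVCAR4 ResA beside 11.6% and 4 of 22 in OVCAR4 ResB beside 18.7%. Without replicate 1 the OVCAR4 counts were 7 higher and 1 lower in ResA and 9 higher and 2 lower in ResB, of 22 each. Of all genes 41.2% and 45.1% were called in those fits. IRF7, the factor that amplifies interferon production, was 2.33 ± 0.25 TPM in PEO1 and 17.3 ± 1.49 TPM in PEO4 (log2 fold change 2.93 ± 0.25, adjusted p = 4.7e-31). In OVCAR3 ResA and in PEA1 it was at 0 counts in all 3 libraries, against 3.55 ± 0.84 TPM in OVCAR3 (adjusted p = 3.4e-13) and 3.81 ± 0.77 TPM in PEA2 (adjusted p = 8.5e-13). IFI16, a DNA sensor of nucleus and cytosol, was higher in OVCAR3 ResA (2.73 ± 0.49 TPM, against 0.142 ± 0.019 in OVCAR3, adjusted p = 3.0e-16) and OVCAR4 ResB (7.38 ± 1.15 TPM, against 1.01 ± 0.34 in OVCAR4, adjusted p = 4.2e-07; 6.1e-07 without replicate 1). It was higher in PEO4 and PEO6 than in PEO1 by a log2 fold change of 1.68 ± 0.17 (adjusted p = 4.2e-21) and 1.37 ± 0.23 (adjusted p = 2.5e-08). In PEA2 it was lower, at 30.5 ± 4.97 TPM against 83.5 ± 28.8 TPM in PEA1 (log2 fold change -1.28 ± 0.27, adjusted p = 1.3e-05), and in OVCAR3 ResB and OVCAR4 ResA it was not called (adjusted p = 0.94 and 0.26). The IFI16 values in PEO6, PEA2, OVCAR3 ResB and OVCAR4 ResA were added after they were seen. ENPP1, which breaks down extracellular cGAMP, was lower in PEO6 than in PEO1 by a log2 fold change of -2.28 ± 0.34 (adjusted p = 3.8e-10). IFNL1, a type III interferon named here after its values were seen, had 48 to 57 counts in each PEO4 library against 0 to 1 in PEO1, and the adjusted p was 1.5e-07.

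Genes that interferon or IRF3 switch on, a list of 12, moved with the RNA sensors in the PEO and PEA families. All 12 were called higher in PEO4 and in PEO6, with a median log2 fold change of 3.31 and 2.75 beside 0.01 and 0.02 over all genes tested, of which 34.4% and 41.7% were called. Of the 6 epithelial markers 3 were called higher and none lower in each of PEO4 and PEO6, and of the leukocyte markers 1 was called lower in each (CD14 in PEO4, log2 fold change -1.72, adjusted p = 0.00079, and CD68 in PEO6, -1.53, adjusted p = 1.7e-08). The part of these marker differences was not tested. MX1, an antiviral GTPase, was 3.39 ± 0.71 TPM in PEO1 and 330 ± 93.2 TPM in PEO4 (adjusted p = 3.0e-286), and the chemokine CCL5 went from 0.094 ± 0.098 to 65.8 ± 4.34 TPM (adjusted p = 9.6e-19). In PEA2 9 of the 12 were called lower and none higher, with a median of -1.70 beside -0.02, where 46.0% of all genes were called. CCL5 there was 22.6 ± 8.17 TPM in PEA1 and 0.127 ± 0.061 TPM in PEA2 (adjusted p = 7.6e-28), and OASL was 34.8 ± 10.9 and 4.04 ± 1.44 TPM (adjusted p = 4.4e-16). In the cisplatin-selected lines 3 were called higher and 3 lower of 11 in OVCAR3 ResA (46.3% of all genes), with a median of 0.07. In OVCAR3 ResB 3 of 11 were higher (7.45% of all genes), with a median of 1.03. In OVCAR4 ResA 5 of 11 were higher (11.6%) and in OVCAR4 ResB 3 of 10 (18.7%), with medians of 1.43 and 0.99. None was lower in the last 3 lines, and the median over all genes was between -0.01 and 0.00 in these 4 comparisons. Without replicate 1, 6 of 9 were higher and 1 lower in OVCAR4 ResA, where 41.2% of all genes were called. In OVCAR4 ResB 5 of 10 were then higher and 1 lower, where 45.1% of all genes were called. OAS1, an enzyme activated by double-stranded RNA, fell in OVCAR3 ResA from 7.36 ± 1.74 to 0.374 ± 0.259 TPM (adjusted p = 4.5e-25), and MX1 rose in OVCAR4 ResA from 0.364 ± 0.130 to 5.79 ± 3.93 TPM (adjusted p = 8.6e-07; 7.5e-05 without replicate 1).

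Across the 11 lines, the mean log2(TPM + 1) of the 12 target genes had a Pearson correlation of 0.94 with that of IFIH1, 0.91 with DDX58, 0.81 with TLR3 and 0.78 with MB21D1. The correlation was 0.53 with TBK1, 0.21 with MAVS, 0.07 with TMEM173, -0.04 with TREX1 and -0.05 with IRF3. These are descriptions: the lines share families, and the values share the TPM scale. PEO4, PEO6 and PEA1 were the 3 lines with the highest targets and held the 3 highest levels of IFIH1, DDX58 and TLR3, as the plot of sensors against targets shows.

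**Figure D4:**
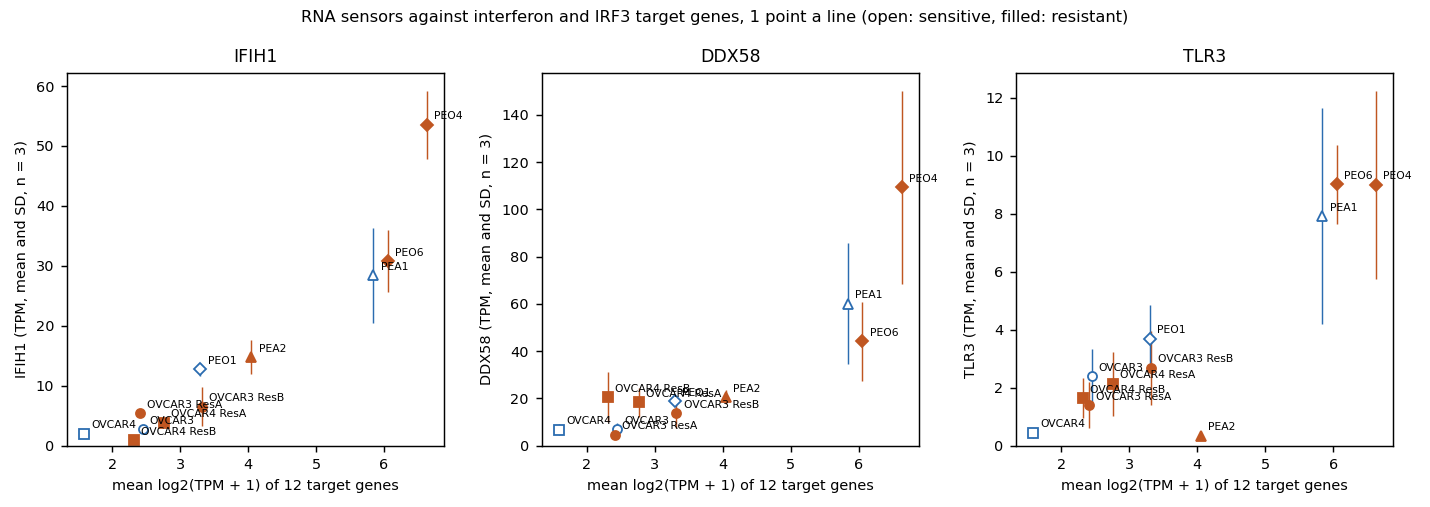
Level of IFIH1, DDX58 and TLR3 (TPM, mean with SD as bars, n = 3) against the mean log2(TPM + 1) of 12 interferon and IRF3 target genes, with 1 point for each of 11 lines, a marker shape for each family, open for sensitive and filled for resistant lines. PEO4, PEO6 and the sensitive line PEA1 lie at the upper right in all 3 panels, and PEA2 has the lowest TLR3 level despite an intermediate target level.

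By likeness over the 11 line means, among 13185 genes reaching 5 TPM in some line, the nearest genes to IFIH1 were DDX60 (Pearson r = 0.98), PNPT1 (0.96) and IFIT1 (0.96), and the nearest to DDX58 were IFIT3 (0.97), NBN (0.96) and EIF2AK2 (0.95). The nearest to MB21D1 was ZNF880 (0.96), to TBK1 SS18 (0.97), to TLR3 FAM193A (0.95), to MAVS ZC3HAV1L (0.95), to TMEM173 LOC90784 (0.94), to TREX1 CDIP1 (0.94) and to IRF3 DNAJA2 (0.93).

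When the counts of each line were summed and the 7 resistant lines were set against the 4 sensitive lines with family as a covariate, 0 of the 10 members were called by DESeq2 or by edgeR, and 0 had an unadjusted p-value under 0.05 in either. Of all genes 0.287% were called by DESeq2. The edgeR fit called 0 of 24644 genes, with 925 at an unadjusted p-value under 0.05, so its count of 0 says nothing particular about the members. The lowest unadjusted p-value of a member was 0.22 (TREX1), the log2 fold change of MB21D1 was -0.90 ± 0.87 and that of TMEM173 was 0.49 ± 0.46. Without the PEA family TMEM173 had an unadjusted p-value of 0.016 and was not called.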

How the data were processed

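RNA of 33 libraries from 11 lines was sequenced after poly(A) selection. Per the study's methods, the authors processed reads with the nf-core pipeline against GRCh38 and summarised them per gene with salmon. The deposited expected counts per gene were not normalised, and 88.4% of them were whole. The deposited TPM values divide each count by an effective gene length and scale every library to the same sum, so they keep no depth. Strand use was not given in the sources used here, and counts of overlapping genes are uncertain. The labels give no preparation batch.

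The sample titles gave each library's line and replicate number. The expected counts were rounded and each comparison of 6 libraries was fitted in R 4.3.3 with DESeq2 1.42.0. The study's methods state DESeq2, a design with line and replicate, and an adjusted p-value under 0.05 as the call; the Wald test, no filter before fitting and alpha 0.05 in the results were chosen here. Adjustment was by Benjamini-Hochberg, and undefined adjusted p-values stayed undefined. Lines were compared on counts summed over 3 libraries with family as a covariate. Levels are TPM, as mean ± SD (n = 3). The alternatives were the quasi-likelihood test of edgeR 4.0.16, limma 3.58.1 on log2(TPM + 1) with at least 1 TPM in 3 libraries, TMM factors, a filter of 10 counts in 3 libraries, no replicate block, all 33 libraries in one fit, and leaving out each replicate number or family. The pairwise DESeq2 and edgeR fits were tested on data simulated from PEO1 and PEO4 without a replicate effect. The limma fit, the fit of all 33 libraries and the fit of summed lines were not tested so. Depth limits low genes: a library of 3 counts or fewer was taken as the floor, and folds against a line whose libraries were all at the floor are lower bounds. Intervals for counting error do not cover differences between cultures.

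Same-numbered libraries deviated together (all 3 correlations above 0.1) for OVCAR4 ResB with OVCAR4 ResA (0.68, 0.48 and 0.51) and for OVCAR3 ResA with OVCAR3 (0.63, 0.20 and 0.42), and not in the other 8 comparisons. All 3 were negative for OVCAR4 with its ResA (-0.40, -0.31 and -0.07) and ResB (-0.42, -0.32 and -0.03), and for PEO6 with PEO4 (-0.24, -0.12 and -0.38). The main fits kept the replicate block in every comparison, also where the libraries did not deviate together. Members and gene lists were chosen with earlier results of these data known. All 10 members are named. Of the pathway and target lists, those eligible to be named were, per comparison, the 2 called genes with the largest fold change whose normalised counts averaged 50 or more, and not every eligible gene is given. The genes most like a member were the 3 with the highest Pearson r over line means. Coordinates and promoters are from RefSeq GRCh38.p14 tables, matched by symbol or synonym; the genome sequence at hand was of another build and was not used.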

Additional observations from a re-analysis of the deposited data

Results flagged for a closer look

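Lines of a family differed directly in 8 results, each from the test of a resistant line against another. In OVCAR3 ResB against ResA the log2 fold change was 1.52 for DDX58 and 1.14 for TMEM173. In OVCAR4 ResB against ResA it was -2.17 for IFIH1, 0.47 for MAVS and -0.34 for IRF3. In PEO6 against PEO4 it was -0.86 for IFIH1, -1.37 for DDX58 and -0.99 for MB21D1. Of all genes 13.6%, 33.1% and 18.3% were called in these comparisons, in that order.

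Of the members, 6 were called in opposite directions, without overlap of libraries, in different families; the difference between the families was not tested. How many of all genes meet this rule was not counted, so the 6 cannot be read as particular to the members. Of all genes 34.4% were called in PEO4, 41.7% in PEO6, 46.0% in PEA2 and 46.3% in OVCAR3 ResA. The extremes are TLR3, with a log2 fold change of 1.31 in PEO6 and -4.29 in PEA2, IFIH1, with 2.10 in PEO4 and -1.74 in OVCAR4 ResB, and DDX58, with 2.51 in PEO4 and -1.34 in PEA2. MAVS had 0.39 in OVCAR3 ResA and -0.81 in PEO4, and MB21D1 had 1.55 in PEO4 and a fitted -6.40 in OVCAR4 ResB, which is no bound because all 3 of those libraries were at the floor. TMEM173 had 1.92 in OVCAR3 ResB and -1.39 in PEA2.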

How the results depend on the processing

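Of 36 member calls (28 between resistant and sensitive lines and 8 between resistant lines), 18 were kept in all 9 alternatives and 18 were lost in at least 1; no direction was reversed in 324 refitted values, of which 274 kept the call. The low-count filter lost none of the 36, TMM factors lost 1, edgeR 3, no replicate block 4, the fit of all 33 libraries 6, limma on TPM 8, and leaving out replicate 1, 2 or 3 lost 9, 13 and 6. The number of members called moved by over 1.5 times in these cases. Without the replicate block it was 3 in OVCAR3 ResA, 2 in OVCAR3 ResB, 4 in OVCAR4 ResA and 7 in OVCAR4 ResB against their sensitive lines. Of all genes tested, 5459 of 18076, 1765 of 17903, 3468 of 16001 and 4730 of 17023 were called there, in that order. In the fit of all 33 libraries the number of members called was 4 in OVCAR3 ResB, 5 in OVCAR4 ResA and 7 in OVCAR4 ResB. It was 4 between the OVCAR3 resistant lines. That fit called 3030 of 18432, 4562 of 17477, 5726 of 18432 and 5021 of 18432 of all genes in the same order. The number of members called was 1 in OVCAR4 ResA with edgeR and with limma. It was 0 with limma between the OVCAR3 resistant lines and between PEO6 and PEO4. Of all genes in OVCAR4 ResA, edgeR called 531 of 20951 and limma 297 of 12869. Between the OVCAR3 resistant lines limma called 842 of 13584, and between PEO6 and PEO4 1061 of 13624. The cause was not tested.

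Leaving out a replicate number gave 4 to 5 members called in OVCAR3 ResA, 1 to 2 in OVCAR3 ResB, 0 to 5 in OVCAR4 ResA, 1 to 8 in OVCAR4 ResB, 5 to 8 in PEA2, 5 in PEO4 and 3 in PEO6; between resistant lines it gave 1 to 2 (OVCAR3), 1 to 3 (OVCAR4) and 0 to 3 (PEO6 against PEO4). These fits have 4 libraries, and the number of all genes called moved as well. It went from 4931 of 16374 to 5749 of 17142 in OVCAR3 ResA and 452 of 15366 to 1939 of 15350 in OVCAR3 ResB. In OVCAR4 it went from 292 of 14946 to 6229 of 15131 in ResA and 621 of 15855 to 7216 of 15991 in ResB. In PEA2 it was 4290 of 15900 to 6944 of 16347, and in PEO4 2927 of 15827 to 6205 of 16492. In PEO6 it was 3714 of 15997 to 5243 of 16361. Between resistant lines it was 793 of 15228 to 3699 of 16109 (OVCAR3) and 1832 of 15043 to 4297 of 15241 (OVCAR4). PEO6 against PEO4 had 740 of 16318 to 5229 of 15859. Low counts limit MB21D1 in the OVCAR3 family and IFNB1 in all lines.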
